A study of Mus musculus with 8 samples.

Results

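Interferon-stimulated genes are the genes that cells switch on when interferon reaches them, and 34 of them were followed here in inguinal white adipose tissue (iWAT). They were taken by gene symbol from a list that no threshold on measured values defined, and all 34 were among the 17264 genes of the deposited tables. The tissue came from male C57BL/6 mice, 9 weeks old, after a stay of 7 days at 4 °C. They were either Y1cKO mice, which carried a floxed Ythdf1 allele (exon 4) on both chromosomes together with Adipoq-Cre, or Y1CTL mice, which carried the same floxed alleles without Cre. Ythdf1 encodes a cytoplasmic reader of the RNA modification m6A, and the comparison asks what its loss from adipocytes does to transcript levels, measured by RNA-seq, and to ribosome occupancy, measured by Ribo-seq of the fragments that ribosomes protect. Each genotype had 2 libraries per assay, 8 in all. The lysate was shared out between both assays, and whether libraries of the same number came from 1 animal is not given, so that a ratio of Ribo-seq over RNA-seq may compare different animals. Adipoq-Cre acts in adipocytes, whereas the libraries were made from whole iWAT, so that other cells of the tissue keep Ythdf1 and contribute to every value. The labels do not say that replicates were separate animals, and p-values therefore measure only the spread between these libraries.

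Type I interferons bind the IFNAR receptor and type II interferon binds the IFNGR receptor, and both activate JAK kinases. Type I signalling acts through a complex that holds STAT2 and IRF9 and binds the interferon-stimulated response element (ISRE) of target promoters, whereas the transcription factor IRF1 serves the type II response. The products sense foreign RNA and DNA, block viral translation and budding, degrade RNA, tag proteins with the ubiquitin-like ISG15 or restrain the response itself, and many of them are expressed at a low level in tissues without infection.

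Promoters of 26 of the 34 genes were matched in a RefSeq table (build GRCm38.p6), each from 250 bases before to 50 bases after the annotated start. Parp9, Rtp4, Parp14, Usp18, Zbp1, Mx2, Oas2 and Mx1 were not matched. The ISRE core was searched as GAAANNGAAA on both strands, with overlapping matches kept. Some genes had more than 1 annotated start, and a gene was counted when any of its windows held the core. The core was present for 15 of the 26 genes (57.7%), against 1079 of all 27025 genes with a promoter (3.99%). The windows below are from genes with the core that later comparisons name, and not every such gene is shown. They are read 5′ to 3′ along the gene, with 20 bases on each side. The core is in capitals, which show its reverse complement where it lies on the opposite strand. Ifi44, Ifit2, Trim25, Xaf1 and Irf1, which later comparisons also name, had matched promoters without the core. Isg15 (chr4:156200855-156200916, minus strand) has 3 overlapping copies that begin 78 bases before the start, and Oas1a (chr5:120907510-120907565, minus strand) and Bst2 (chr8:71537567-71537622, minus strand) have 2 overlapping copies that begin 20 and 130 bases before it. Oas3 (chr5:120777705-120777754, minus strand), Gbp2 (chr3:142620584-142620633, plus strand) and Cxcl10 (chr5:92349073-92349122, minus strand) have 1 copy each, 75, 59 and 213 bases before the start. Eif2ak2 (chr17:78882525-78882574, minus strand) has 1 copy, 18 bases after the start. Ifit3 (chr19:34583353-34583436, plus strand) has 2 separate copies, the first of them 156 bases before the start, and the 84-base window of its copy Ifit3b is identical.
Isg15: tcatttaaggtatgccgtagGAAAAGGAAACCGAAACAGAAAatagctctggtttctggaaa
Oas1a: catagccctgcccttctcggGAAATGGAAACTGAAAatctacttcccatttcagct
Bst2: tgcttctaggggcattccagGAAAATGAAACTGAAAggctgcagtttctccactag
Oas3: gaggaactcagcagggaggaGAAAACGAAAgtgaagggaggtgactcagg
Gbp2: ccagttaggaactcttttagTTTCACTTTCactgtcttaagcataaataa
Cxcl10: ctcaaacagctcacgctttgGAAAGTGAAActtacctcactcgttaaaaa
Eif2ak2: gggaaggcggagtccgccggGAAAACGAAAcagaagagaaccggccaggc
Ifit3: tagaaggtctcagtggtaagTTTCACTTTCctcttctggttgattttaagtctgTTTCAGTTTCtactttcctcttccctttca
A match describes the letters of the window and is not a test of binding. The search allowed no mismatch and no other spacing, so that a promoter without the core is not shown to lack the element. Among 33 other interferon-stimulated genes with a matched promoter, 16 held the core (48.5%).

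The Ribo-seq libraries held 9511334 and 9035419 reads in Y1cKO and 11862838 and 7364523 reads in Y1CTL. The RNA-seq libraries held 12211351 and 16429015 reads in Y1cKO and 3958284 and 4963613 reads in Y1CTL, so that low transcripts were read least precisely in Y1CTL. Adipocyte markers were high in every library, with a median of 384 to 828 RPKM (reads scaled to gene length and to the reads of the library) by RNA-seq and of 2486 to 3769 RPKM by Ribo-seq. Other cells were not shared evenly. The summed level of 25 lymphoid markers (T cells, B cells, lymph node) was 8.57 and 8.57 RPKM in the Y1cKO RNA-seq libraries and 3.64 and 514 RPKM in the Y1CTL RNA-seq libraries, whereas all 4 Ribo-seq libraries were between 1334 and 1763 RPKM. The summed level of 12 skeletal muscle genes was 259 and 4.86 RPKM in Y1cKO RNA-seq replicates 1 and 2 and at most 17.1 RPKM in the other 6 libraries. Ythdf1 itself had 12.7 and 15.7 RPKM in Y1cKO and 17.3 and 15.99 RPKM in Y1CTL by Ribo-seq, and 7.17 and 7.98 RPKM in Y1cKO and 8.01 and 11.5 RPKM in Y1CTL by RNA-seq. By each assay its level was lower in both Y1cKO libraries, and neither difference passed the test (adjusted p = 1.00 for Ribo-seq and 0.587 for RNA-seq, limma). These values cover the whole gene in the whole tissue, and fewer cells of a type cannot be told apart from less RNA per cell.

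All 34 genes had reads in both assays in cold iWAT of both genotypes, and their levels differed widely. The median member had 14.8 and 14.0 RPKM in the Y1cKO and 16.3 and 15.8 RPKM in the Y1CTL Ribo-seq libraries, and 6.70 and 5.49 RPKM in the Y1cKO and 5.74 and 5.05 RPKM in the Y1CTL RNA-seq libraries. Bst2, which encodes tetherin, a membrane protein that holds budding virus at the cell surface and also marks plasmacytoid dendritic cells, had the highest footprint level, with 194 and 197.1 RPKM in Y1cKO and 247 and 197.4 RPKM in Y1CTL. It was followed by Irf1, a transcription factor of the type II response, with 97.8 and 98.3 RPKM in Y1cKO and 91.3 and 79.0 RPKM in Y1CTL. Gbp2, an interferon-γ-induced GTPase that attacks the membranes around intracellular microbes, came next with 56.0 and 60.1 RPKM in Y1cKO and 53.0 and 63.9 RPKM in Y1CTL. These 3 genes stood in the same order by footprints in all 4 Ribo-seq libraries, and Irf1 was higher in both Y1cKO libraries whereas Gbp2 overlapped between genotypes. Rtp4, which encodes a negative regulator of the type I response in mice, had 39.8 and 36.7 RPKM in Y1cKO and 44.2 and 50.4 RPKM in Y1CTL. Ifi35, which encodes an interferon-induced leucine zipper protein, had 29.4 and 35.6 RPKM in Y1cKO and 30.5 and 35.8 RPKM in Y1CTL. By RNA-seq the highest 5 were Irf1, Gbp2, Bst2, Stat2 and Parp14.

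Most members carried more footprints per transcript than the median gene. Across the 12435 genes with RNA-seq values over the minimum, the median of log2 Ribo-seq over RNA-seq was 0.84, and across the 34 members it was 1.51, with 25 of them above the 50th percentile of all genes. RPKM of the 2 assays is scaled separately, so that this ratio is read only against other genes. Other lists also lay above that median, with a median percentile of 66.7 for 42 other interferon-stimulated genes against 68.0 for the members, 74.2 for 9 signal carriers, 92.6 for 9 fibroblast markers and 97.8 for 12 macrophage markers. Bst2 (percentile 97.9) and Cxcl10 (percentile 97.3), a chemokine that draws activated T cells, were at the top, followed by Isg15 (percentile 88.1). Mx2 (percentile 8.71), Oas2 (percentile 10.6) and Mx1 (percentile 13.2) were at the bottom. Mx1 and Mx2 encode dynamin-like GTPases against RNA viruses, and common laboratory strains such as C57BL/6 are known to carry alleles of both that make no functional protein. Mx1 had 0.168 and 0.235 RPKM in Y1cKO and 0.717 and 0.144 RPKM in Y1CTL by Ribo-seq, which stood for 3 and 4 reads against 16 and 2 reads. Mx2 had 0.214 and 0 RPKM in Y1cKO and 0.172 and 0.345 RPKM in Y1CTL, where the 0 allows up to 3 reads or 0.169 RPKM by counting error. Both were near the limit of detection by footprints and were not tested there. The 25 lymphoid markers were high in the Ribo-seq libraries and low in 3 of the 4 RNA-seq libraries (values above), and without Y1CTL RNA-seq replicate 2 the median of log2 Ribo-seq over RNA-seq was 1.42 for the members and 0.82 for all genes. The part of those cells in the members' ratios was not tested.

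**Figure D1:**
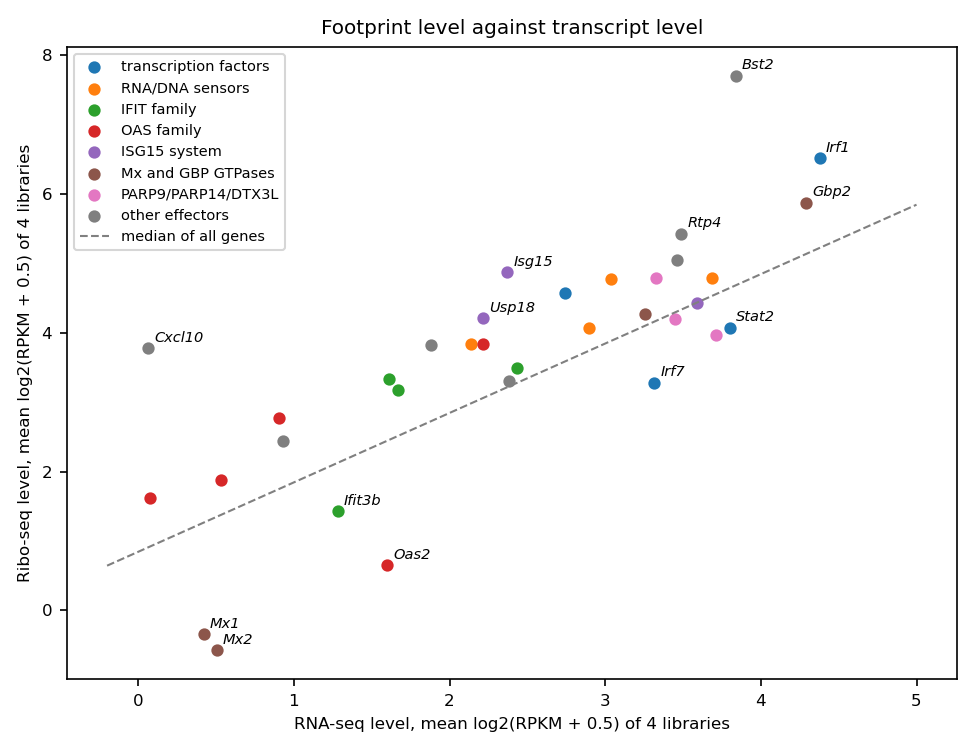
Each point is 1 of the 34 interferon-stimulated genes, with its RNA-seq level on the x axis and its Ribo-seq level on the y axis, both as the mean of log2(RPKM + 0.5) over 4 libraries, and colours give the role. The dashed line marks the median ratio of all genes (0.84 on the log2 scale); Bst2 and Cxcl10 lie far above it, and Mx1, Mx2 and Oas2 lie below it.

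Footprints on interferon-stimulated genes tended to be lower in Y1cKO than in Y1CTL iWAT, by a small amount that no single gene carried past the test. Differences were taken on log2(RPKM + 0.5), which understates the change of low genes, and tested with limma over all genes that averaged 0.5 RPKM or more. Of the 32 members tested, 28 had a log2 fold change below 0, against 48.5% of the 12602 genes tested. Their median was -0.26, against 0.01 for all genes. In 17 of the 32 both Y1cKO libraries were below both Y1CTL libraries, against 14.1% of all genes, and in 2 (Irf1 and Cxcl10) both were above, against 15.4% of all genes. No member and no other gene passed an adjusted p of 0.05 (0% of genes tested), 4 members had an unadjusted p under 0.05 and a lower level (1.13% of all genes), and voom on the reads computed back from RPKM also called 0 genes. Over all genes, 347 had an unadjusted p under 0.05.

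Isg15 gave the clearest difference. It encodes the ubiquitin-like modifier that is attached to newly made proteins, and it had 24.6 and 20.6 RPKM in Y1cKO and 40.5 and 33.5 RPKM in Y1CTL by Ribo-seq (113 and 90 reads against 232 and 119 reads). The groups did not overlap, and the log2 fold change was -0.70 (95% interval -1.10 to -0.29, unadjusted p = 0.00518, adjusted p = 1.00, limma). By RNA-seq Isg15 had 5.94 and 3.46 RPKM in Y1cKO and 5.03 and 4.59 RPKM in Y1CTL, so that the transcript values of Y1cKO spanned those of Y1CTL. The other members of the ISG15 system were Usp18, the protease that removes ISG15 and also restrains the type I receptor, and Trim25, a ubiquitin ligase that activates the RNA sensor RIG-I. Usp18 had 16.4 and 14.8 RPKM in Y1cKO and 27.3 and 15.9 RPKM in Y1CTL by Ribo-seq, where only Y1CTL replicate 1 stood apart. Trim25 differed little by footprints, with 19.2 and 21.2 RPKM in Y1cKO and 22.3 and 21.6 RPKM in Y1CTL. The enzymes that conjugate ISG15 formed a separate list of 4, of which 3 had a Ribo-seq fold change below 0, with a median of -0.24. Ube2l6, the conjugating enzyme, had 36.0 and 42.4 RPKM in Y1cKO and 50.5 and 48.5 RPKM in Y1CTL, and Herc6, the main mouse ligase, had 6.11 and 6.14 RPKM in Y1cKO and 7.42 and 8.30 RPKM in Y1CTL. Neither passed the test (adjusted p = 1.00 for each, limma).

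Ifi44, an interferon-induced cytoplasmic protein, had the lowest fold change of the 32 with all libraries in, a rank that did not hold without Y1CTL replicate 1, where it had -0.39 and Isg15 -0.56. It had 4.07 and 3.41 RPKM in Y1cKO and 8.39 and 5.04 RPKM in Y1CTL by Ribo-seq, a log2 fold change of -0.73 (95% interval -1.38 to -0.09, unadjusted p = 0.0317, limma). Its transcript was also lower, with 0.985 and 1.09 RPKM in Y1cKO and 2.26 and 1.52 RPKM in Y1CTL, so that the genotypes were separate in both assays. The transcript rests on 22 to 52 reads per library, and its log2 fold change of -0.62 had an unadjusted p of 0.136 (limma).

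Of the IFIT proteins, IFIT1 binds viral RNA with foreign 5′ ends and holds it back from translation. Ifit2 was separate between genotypes by Ribo-seq, with 9.10 and 6.67 RPKM in Y1cKO and 13.0 and 10.5 RPKM in Y1CTL, a log2 fold change of -0.55 (unadjusted p = 0.0368, limma) that was -0.34 without Y1cKO replicate 2, and its transcript values overlapped, with 3.67 and 2.09 RPKM in Y1cKO and 2.05 and 2.69 RPKM in Y1CTL. Ifit3 had 10.5 and 8.79 RPKM in Y1cKO and 14.2 and 9.996 RPKM in Y1CTL by Ribo-seq, so that the genotypes overlapped. Ifit3b had 2.61 and 1.92 RPKM in Y1cKO and 1.67 and 2.70 RPKM in Y1CTL, with Y1CTL values on both sides of Y1cKO. Ifit1 also overlapped between genotypes and had 6.85 to 11.3 RPKM over the 4 Ribo-seq libraries. Ifit3 and Ifit3b are near-identical copies, and how reads common to both were assigned is not given in the sources used here, so the split between them is uncertain.

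The OAS enzymes make the 2′-5′-linked oligoadenylates that activate RNase L, and the OAS-like proteins Oasl1 and Oasl2 belong to the same family. All 5 had a log2 fold change below 0 by Ribo-seq, against 48.5% of all genes. Oas1a, Oas2 and Oas3 were lower in both Y1cKO libraries than in both Y1CTL libraries, against 14.1% of all genes. Oas1a had 5.44 and 5.13 RPKM in Y1cKO and 8.19 and 7.03 RPKM in Y1CTL, a log2 fold change of -0.48 (unadjusted p = 0.0328, limma). Reads of Oas1a may be shared with its neighbouring copies. Oas3 had 2.28 and 2.11 RPKM in Y1cKO and 3.73 and 2.43 RPKM in Y1CTL. Oas2, Oasl1 and Oasl2 had 0.840 to 15.5 RPKM over the 4 Ribo-seq libraries. The separation of Oas2 rests on few reads, 18 and 20 in Y1cKO and 33 and 21 in Y1CTL.

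Among the sensors, Ifih1 (MDA5) and Ddx58 (RIG-I) detect double-stranded and 5′-triphosphate RNA, Eif2ak2 (PKR) halts translation initiation when it meets double-stranded RNA, and Zbp1 senses Z-form nucleic acid. Ifih1, Ddx58 and Eif2ak2 were lower in both Y1cKO libraries than in both Y1CTL libraries by Ribo-seq, against 14.1% of all genes. The margin of Ddx58 was narrow, with 24.4 and 27.8 RPKM in Y1cKO and 28.4 RPKM in each Y1CTL library. Eif2ak2 had 23.2 and 25.9 RPKM in Y1cKO and 28.6 and 30.2 RPKM in Y1CTL, and Zbp1 had 13.0 and 11.8 RPKM in Y1cKO and 18.1 and 12.8 RPKM in Y1CTL. The margins were small beside those of Isg15, and the 4 genes had a median log2 fold change of -0.27.

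The 4 transcription factors of the pathway had a median log2 fold change of -0.05. Irf1 and Cxcl10 were the only members tested that were higher in both Y1cKO Ribo-seq libraries, with a log2 fold change of 0.21 each (adjusted p = 1.00, limma). Without Y1CTL replicate 2 these were 0.10 for Irf1 and 0.08 for Cxcl10, and without Y1CTL replicate 1 they were 0.31 and 0.35. Cxcl10 had 15.0 and 13.6 RPKM in Y1cKO and 13.5 and 11.1 RPKM in Y1CTL. Stat2 had 15.6 and 16.8 RPKM in Y1cKO and 16.6 and 16.4 RPKM in Y1CTL, and Gbp2 had a log2 fold change of -0.005 (95% interval -0.37 to 0.36, limma). Irf9, the DNA-binding subunit of the type I complex, was lower in both Y1cKO libraries by Ribo-seq, with a log2 fold change of -0.19. Its margin was narrow, with 22.9 and 20.7 RPKM in Y1cKO and 26.8 and 23.2 RPKM in Y1CTL. By RNA-seq Irf9 was higher in both Y1cKO libraries, as were 36.9% of all genes, with a log2 fold change of 0.35. Neither difference passed an adjusted p of 0.05 (limma). Irf7, which amplifies interferon production, overlapped in each assay. Of the remaining members, Gbp3, Parp9 and Parp14, Rtp4, Xaf1 and Bst2 were lower in both Y1cKO Ribo-seq libraries, against 14.1% of all genes. Dtx3l, the ligase partner of Parp9, Ifi35 and Rsad2 (viperin, which makes a chain-terminating nucleotide) overlapped. The margin of Gbp3 was narrow, with 16.6 and 19.3 RPKM in Y1cKO and 20.1 and 19.5 RPKM in Y1CTL. Parp14, a mono-ADP-ribosyltransferase, had 13.0 and 14.4 RPKM in Y1cKO and 16.9 in each Y1CTL library, and Xaf1, a pro-apoptotic XIAP partner, had 13.0 and 12.03 RPKM in Y1cKO and 14.4 and 15.8 RPKM in Y1CTL. Bst2 was separated only by the margin between 197.1 and 197.4 RPKM, with a log2 fold change of -0.17 (-0.01 when Y1CTL replicate 1 was left out, -0.33 when Y1CTL replicate 2 was), and Rtp4 had -0.30.

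**Figure D2:**
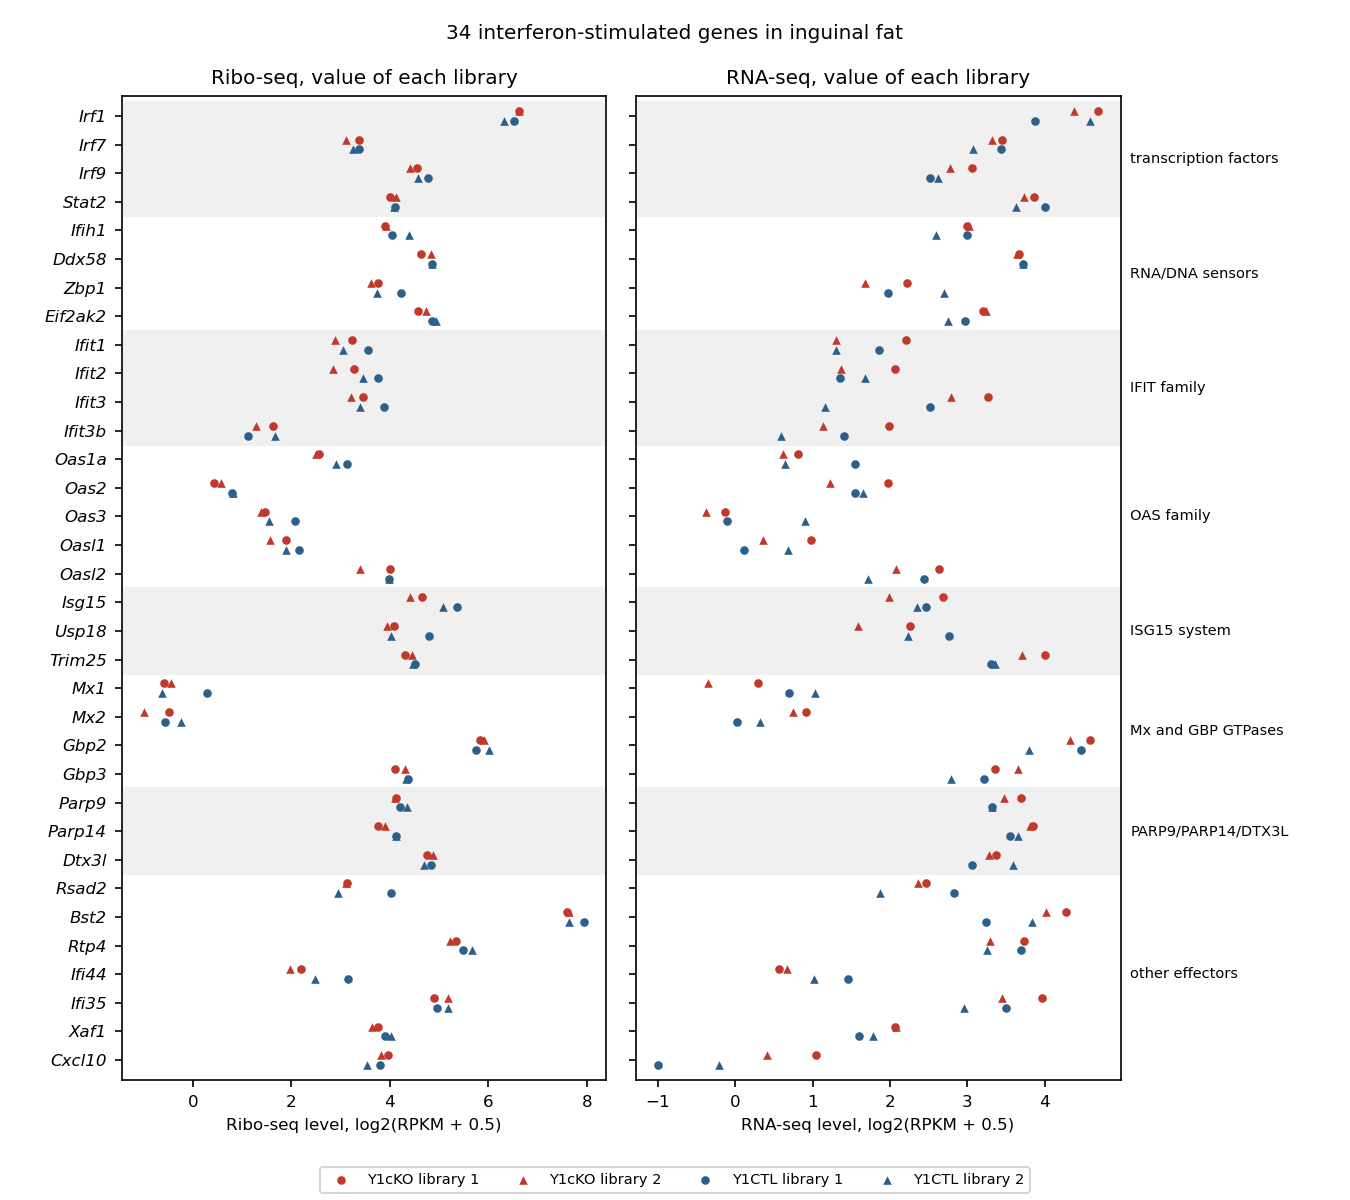
Each row is a gene, grouped by role, and each point is the level of 1 library as log2(RPKM + 0.5), by Ribo-seq on the left and by RNA-seq on the right, with Y1cKO in red above Y1CTL in blue. Isg15, Ifi44, Ifit2 and Oas1a have both Y1cKO points left of both Y1CTL points by Ribo-seq, whereas Ifit3, Trim25, Bst2 and Cxcl10 have both to the right by RNA-seq.

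The lower footprint level did not rest on 1 pair of libraries, although its size did vary between pairs. The median difference over the 32 members was -0.24 between Y1cKO replicate 1 and Y1CTL replicate 1 and -0.12 between Y1cKO replicate 1 and Y1CTL replicate 2. It was -0.26 between Y1cKO replicate 2 and Y1CTL replicate 1 and -0.16 between Y1cKO replicate 2 and Y1CTL replicate 2, while the medians of all genes were between -0.05 and 0.05. The smallest of these, -0.12, was no larger in size than the median difference of 0.14 between the Y1CTL libraries, and that between the Y1cKO libraries was 0.09. Y1CTL replicate 1, the most deeply read, held the highest value of 16 of the 32 members (23.3% of all genes), and Y1cKO replicate 2 held the lowest of 16 (11.95% of all genes). Without Y1CTL replicate 1 the median fold change over the members was -0.13, with 27 of 32 below 0, and without each of the other libraries it was between -0.25 and -0.20. That setting called 51 genes, and 19 were called without Y1CTL replicate 2, with 0 members among them in either.

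**Figure D3:**
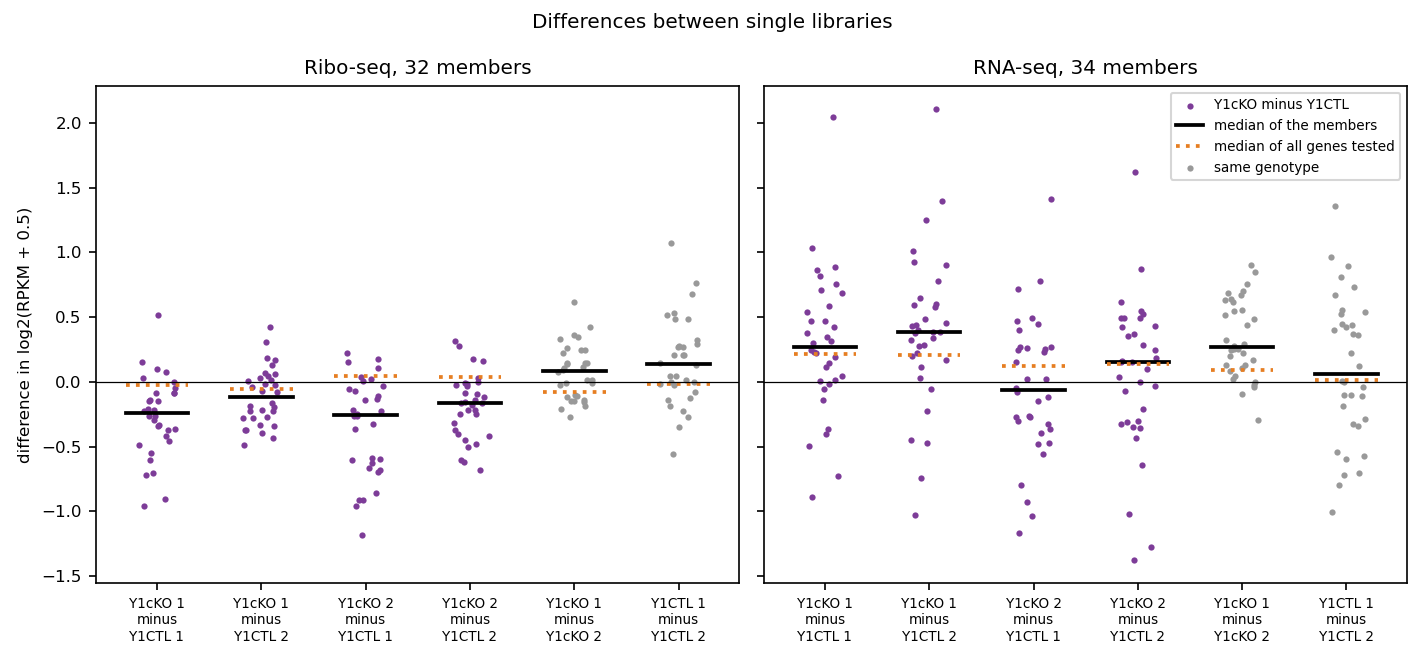
Each point is a member's difference in log2(RPKM + 0.5) between 2 single libraries, for the 32 members tested by Ribo-seq (left) and the 34 tested by RNA-seq (right), in purple between genotypes (Y1cKO minus Y1CTL) and in grey within a genotype; black bars are medians of the members and dotted orange bars medians of all genes tested. By Ribo-seq all 4 purple medians are below 0 (-0.26 to -0.12), and by RNA-seq they run from -0.06 to 0.39.

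Transcripts of the same genes showed no such lowering. By RNA-seq, with 34 members tested, 24 had a log2 fold change above 0, against 67.2% of the 12435 genes tested, and their median was 0.22, against 0.17 for all genes. In 12 of the 34 both Y1cKO libraries were above both Y1CTL libraries, against 36.9% of all genes, and in 4 (Ddx58, Oas3, Mx1 and Ifi44) both were below, against 10.7%. These shares were close to those of all genes. With the libraries scaled to the same median, which brought the median of all genes to 0.01, the members had a median of 0.06, with 20 above and 14 below 0. No gene passed an adjusted p of 0.05 (0% of genes tested), while 2 members had an unadjusted p under 0.05 and a higher level, against 10% of all genes, and 1468 genes had such a p in either direction. Voom on the reads also called 0 genes.

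Cxcl10 had the highest RNA-seq fold change and the lowest mean transcript level after Oas3, with 1.57 and 0.835 RPKM in Y1cKO and 0 and 0.368 RPKM in Y1CTL. These are 21 and 15 reads against 0 and 2 reads, and the 0 allows up to 0.693 RPKM in the least deeply read library, so that its log2 fold change of 1.34 (unadjusted p = 0.0582, limma) is imprecise, and it was 2.53 with a pseudocount of 0.1 and 2.198 by voom. Ifit3 had 9.15 and 6.38 RPKM in Y1cKO and 5.21 and 1.73 RPKM in Y1CTL, a log2 fold change of 1.19 (unadjusted p = 0.0472, limma), and its Y1CTL values lay farther apart than its Y1cKO values. Trim25 had 15.5 and 12.6 RPKM in Y1cKO and 9.40 and 9.69 RPKM in Y1CTL, a log2 fold change of 0.52 (unadjusted p = 0.0391, limma), and here the spread within each genotype was small. Bst2 had 18.8 and 15.7 RPKM in Y1cKO and 8.93 and 13.7 RPKM in Y1CTL by RNA-seq, a log2 fold change of 0.61 that was 0.31 without Y1CTL replicate 1, although its footprints were not higher. Mx2 had 1.39 and 1.18 RPKM in Y1cKO and 0.522 and 0.749 RPKM in Y1CTL, a log2 fold change of 0.66 on 5 to 47 reads per library.

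Mx1 had the lowest RNA-seq fold change, with 0.726 and 0.288 RPKM in Y1cKO and 1.12 and 1.55 RPKM in Y1CTL (log2 fold change -0.89, unadjusted p = 0.105, limma). Mx1 and Mx2, neighbours in function, thus had transcript differences of opposite sign, and neither passed the test. Oas3 had 0.416 and 0.271 RPKM in Y1cKO and 0.428 and 1.37 RPKM in Y1CTL, a log2 fold change of -0.65 that came from Y1CTL replicate 2, the library with lymphoid transcripts. Of the transcripts with the highest levels, Irf1 had 25.3 and 20.2 RPKM in Y1cKO and 14.2 and 23.4 RPKM in Y1CTL, and Gbp2 had 23.4 and 19.5 RPKM in Y1cKO and 21.6 and 13.4 RPKM in Y1CTL. Stat2 had 14.0 and 12.7 RPKM in Y1cKO and 15.5 and 11.9 RPKM in Y1CTL. The genotypes overlapped for all 3 of these, and Parp14 was separate by a small margin, with 13.9 and 13.5 RPKM in Y1cKO and 11.2 and 12.1 RPKM in Y1CTL. Y1cKO replicate 1, the library with muscle transcripts, held the highest RNA-seq value of 20 of the 34 members (39.2% of all genes) and was above Y1cKO replicate 2 in 29 of them. Without it the median RNA-seq fold change of the members was 0.01. The part of muscle or lymphoid tissue in these differences was not tested.

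Translational efficiency (TE), the Ribo-seq level over the RNA-seq level, was lower in Y1cKO for most members, as it was for most genes. TE was tested in 1 fit of the 8 libraries, by whether the genotype difference depended on the assay. Of the 32 members 28 had a log2 fold change below 0, against 65.3% of the 11792 genes tested, and their median was -0.47, against -0.17 for all genes. With libraries scaled to the same median the medians were -0.32 and -0.02, and 23 of the 32 were below 0. No gene passed an adjusted p of 0.05 (0% of genes tested), while 7 members had an unadjusted p under 0.05 and a lower TE, against 7.12% of all genes, and voom on the reads called 0 genes. Over all genes, 1021 had an unadjusted p under 0.05. Some lists of other cells lay as far below 0 or farther. TE medians were -0.50 for 10 endothelial markers (9 below 0) and -0.82 for 10 adipocyte markers (10 below 0). For 9 fibroblast markers the median was -0.88 (8 below 0), and RNA-seq medians of these lists were 0.44, 0.53 and 0.85. Other lists lay nearer to 0 or above it. TE medians were -0.25 for macrophage markers (7 of 12 below 0) and 0.15 for dendritic cell markers (4 of 8 below 0). Lymphoid markers had a TE median of 2.33 (25 of 25 above 0), and 7 of 8 beige markers were above 0. The part of any of these cells in the members' TE was not tested.

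The 7 were Ifit3, with a log2 fold change of -1.49, Cxcl10 with -1.12, Bst2 with -0.78, Trim25 and Xaf1 with -0.64 each, Eif2ak2 with -0.62 and Parp14 with -0.52 (adjusted p = 0.563 for each, limma). The value of Cxcl10 rests on a library with 0 reads and was -2.31 with a pseudocount of 0.1, -0.69 with 1, -2.10 by voom and -0.59 without Y1CTL replicate 1. That of Bst2 was -0.33 when Y1CTL replicate 1 was left out and -1.24 when Y1CTL replicate 2 was, and that of Trim25 was -0.42 without Y1cKO replicate 1. In each of the 7 both Y1cKO RNA-seq libraries were above both Y1CTL RNA-seq libraries, against 36.9% of all genes tested by RNA-seq. A higher RNA-seq level lowers TE by itself, so that picking genes by a low TE favours such genes. Eif2ak2 had 8.70 and 8.95 RPKM in Y1cKO and 7.32 and 6.21 RPKM in Y1CTL by RNA-seq, and Xaf1 had 3.69 and 3.70 RPKM in Y1cKO and 2.53 and 2.95 RPKM in Y1CTL. For 5 of them (Bst2, Trim25, Xaf1, Eif2ak2 and Parp14) the Ribo-seq libraries were separate in the other direction, against 14.1% of all genes. The margin was narrow for Bst2 and Trim25. The footprints of Ifit3 overlapped and those of Cxcl10 were higher. At the other end Oas3 had a TE fold change of 0.26, Usp18 of 0.16 and Zbp1 of 0.10, each with transcripts that were lower on average in Y1cKO. Usp18 had 4.30 and 2.51 RPKM in Y1cKO and 6.28 and 4.21 RPKM in Y1CTL by RNA-seq, and Zbp1 had 4.16 and 2.69 RPKM in Y1cKO and 3.43 and 5.98 RPKM in Y1CTL.

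The TE median depended on single RNA-seq libraries. It was -0.33 without Y1CTL RNA-seq replicate 2, which held the lymphoid transcripts, and -0.25 without Y1cKO RNA-seq replicate 1, which held the muscle transcripts, with 25 and 23 of 32 members below 0. With all libraries in, the median of all genes was -0.17, and 65.3% of them were below 0. The values of all genes without these libraries are not given here, so that how far the members then differed from other genes is not shown. Without Y1CTL replicate 1 in both assays 963 genes passed the test for TE and 665 for RNA-seq, and Ifit3 was the only member among them in each, with a TE fold change of -1.92 (adjusted p = 0.0290, limma) and an RNA-seq fold change of 1.87 (adjusted p = 0.0296, limma). Without Y1CTL replicate 2 in both assays the RNA-seq fold change of Ifit3 was 0.51 (adjusted p = 0.340, limma), and without the RNA-seq library of that replicate alone its TE fold change was -0.81 (adjusted p = 0.370, limma). Without Y1CTL replicate 2, 52 genes passed for RNA-seq, none of them members, and 0 for TE.

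**Figure D4:**
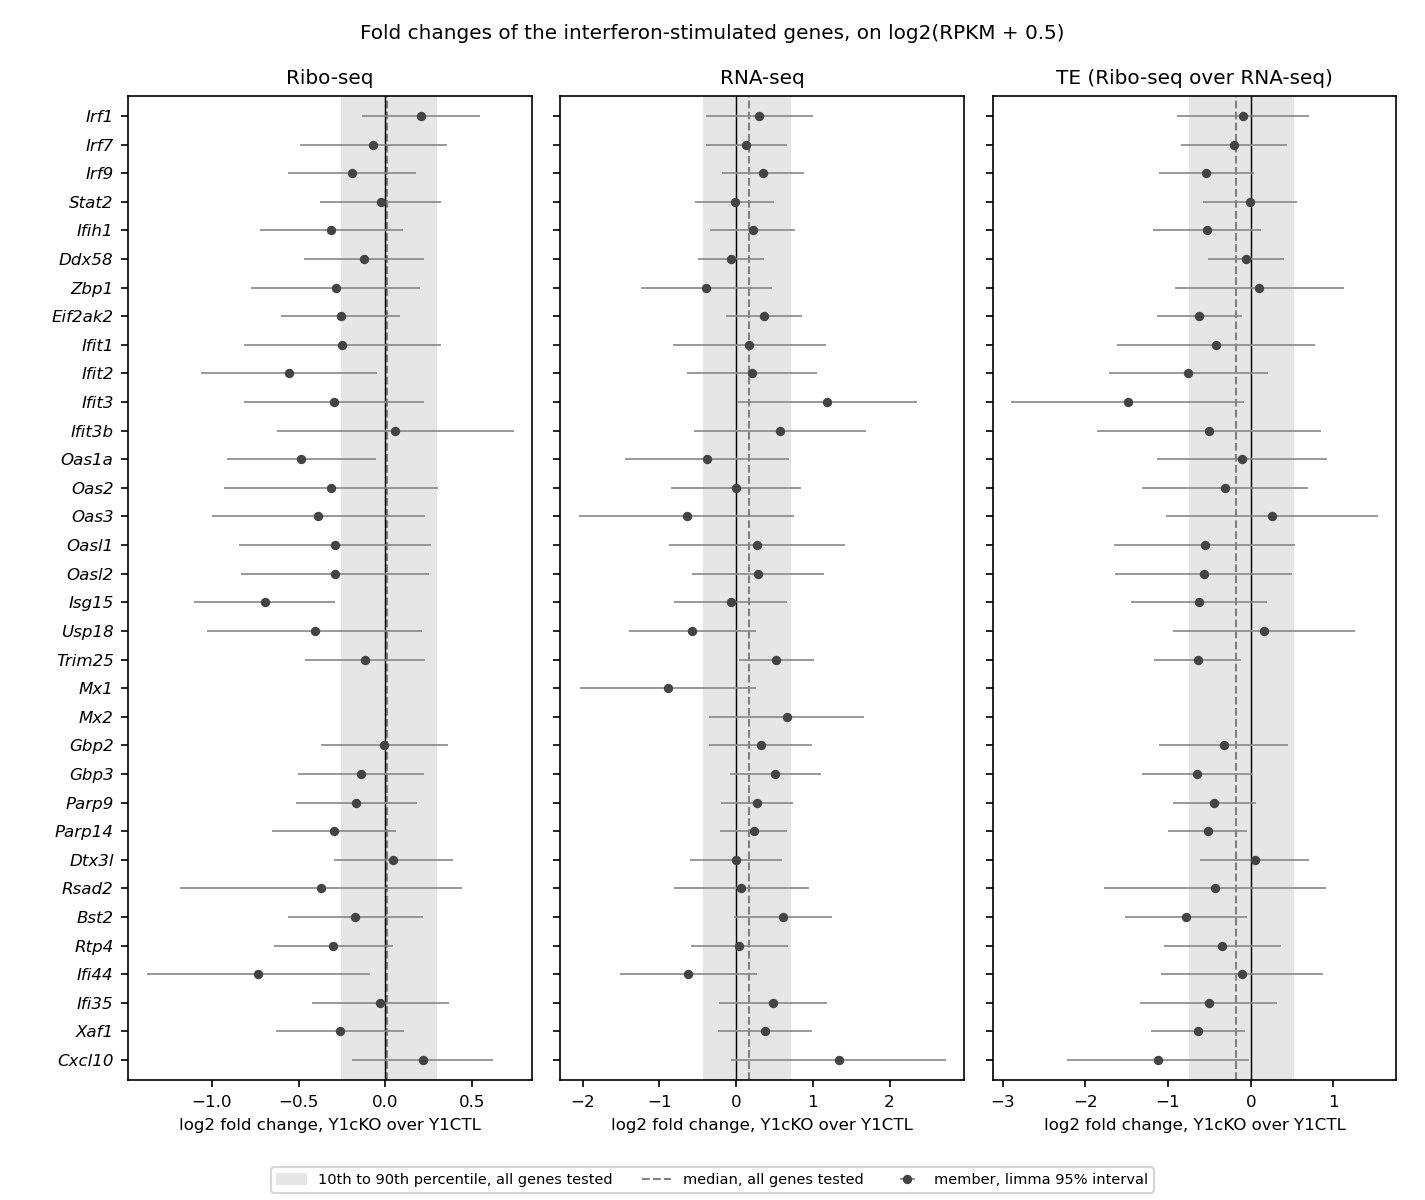
Points are log2 fold changes of Y1cKO over Y1CTL for each member, with limma's 95% intervals as bars, for Ribo-seq, RNA-seq and TE; the grey band spans the 10th to the 90th percentile of all genes tested and the dashed line is their median. By Ribo-seq 28 of 32 points lie left of 0 and Isg15 and Ifi44 lie farthest left, whereas by RNA-seq the points lie on both sides of the all-gene median of 0.17.

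The fold changes of the members in the 2 assays were related across genes, as genes lower by RNA-seq tended to be lower by Ribo-seq. Across the 32 members Pearson's r was 0.55 and Spearman's rho 0.55, as a description only, since genes share libraries and are not independent. In 19 of the 32 the Ribo-seq fold change was below 0 and the RNA-seq fold change above 0, in 9 both were below and in 4 both were above. Members whose promoter held an exact match to the ISRE core had medians close to those without an exact match, and the difference was not tested. Of the 15 with the core, 13 had a Ribo-seq fold change below 0, with a median of -0.25, and of the 11 without it 9 did, with a median of -0.19. Their RNA-seq medians were 0.21 and 0.28, and their TE medians -0.51 and -0.54.

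By Ribo-seq the upstream steps of the pathway were divided in direction. Of the interferons themselves only Ifnk and Ifng were in the tables, with at most 0.476 RPKM in any library. Of 5 receptor chains tested by Ribo-seq, 2 had a fold change below 0, with a median of 0.07. Ifngr2, the signalling chain of the type II receptor, was higher in Y1cKO, with 11.2 and 13.4 RPKM in Y1cKO and 9.14 and 8.04 RPKM in Y1CTL (log2 fold change 0.49, unadjusted p = 0.0285, adjusted p = 1.00, limma), and Ifnar2, a chain of the type I receptor, had -0.13. Of 9 carriers of the JAK-STAT and IRF signal, 5 were below 0, with a median of -0.05. Among them Irf5 had a log2 fold change of 0.23 (adjusted p = 1.00, limma). Of 12 adaptors, receptors and kinases that lead to interferon production, 8 were below 0, with a median of -0.08, led by Dhx58 (-0.37) and Tbk1 (-0.25). Of 6 negative regulators 4 were below 0, with a median of -0.18, and the smallest p-values were those of Ptpn2 (0.27) and Ptpn6 (-0.23). By RNA-seq the medians of these 4 lists and of the conjugation enzymes were between -0.18 and 0.07, against 0.17 for all genes. Of the 11 genes that lead to interferon production and were tested there, 10 had a fold change below 0, whereas 67.2% of all genes were above 0. Both Y1cKO libraries were below both Y1CTL libraries in 0 of the 11, against 10.7% of all genes. The 12 listed genes had a median of 4.53 and 3.61 RPKM in Y1cKO and 2.85 and 6.38 RPKM in Y1CTL. Only Y1CTL replicate 2 was thus above the Y1cKO libraries. The smallest RNA-seq p-values in each list were those of Ifngr1 (0.42) and Ifnar2 (-0.32), Irf5 (-0.76) and Stat3 (0.35), the endosomal receptors Tlr3 (0.53) and Tlr9 (-1.05), Ptpn11 (0.30) and Ptpn6 (-1.78), and Ube2l6 (-0.47) and Uba7 (-0.15). Y1CTL RNA-seq replicate 2, which held the lymphoid transcripts (514 RPKM, against 3.64 to 8.57 RPKM in the other RNA-seq libraries), also stood apart for Ptpn6, with 2.16 and 1.61 RPKM in Y1cKO and 1.97 and 26.3 RPKM in Y1CTL, and it was the highest for Irf5 and Tlr9. The part of those cells in these values was not tested. For TE the smallest p-values were those of Ifngr2 (0.69) and Ifngr1 (-0.35), Irf5 (0.98) and Stat3 (-0.41), Tlr3 (-0.72) and Tlr9 (1.18), Ptpn2 (0.59) and Socs3 (-0.83), and Ube2e1 (0.24) and Herc6 (-0.24). In no comparison did a gene on these lists reach an adjusted p under 0.05 (limma).

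Another 43 interferon-stimulated genes, listed by hand and outside the 34, had a Ribo-seq median nearer to 0. Of these, 28 had a fold change below 0, with a median of -0.06, 15 had both Y1cKO libraries below both Y1CTL libraries, against 14.1% of all genes, and 5 had both above, against 15.4% of all genes. Isg20, an exonuclease that degrades viral RNA, had 2.92 and 3.44 RPKM in Y1cKO and 6.56 and 4.68 RPKM in Y1CTL (log2 fold change -0.72, unadjusted p = 0.0185, limma). Ifitm1, which blocks virus entry at the membrane, had 49.3 and 38.3 RPKM in Y1cKO and 32.3 and 24.8 RPKM in Y1CTL (log2 fold change 0.61, unadjusted p = 0.0190, limma). The 34 and the 43 were not tested against each other. By RNA-seq 25 of 42 tested were above 0, with a median of 0.04, and the smallest p-values were those of Ifi204 (0.78), a DNA sensor of the interferon-inducible p200 family, and Tdrd7 (0.66). Their TE median was -0.13, against -0.17 for all genes, and Ifi204 (-0.87) and Ifitm1 (1.69) had the smallest p-values there, with no gene of the list past the test in any comparison.

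Markers of cells that carry interferon-stimulated genes were examined beside these values. By Ribo-seq 12 macrophage markers had a median fold change of -0.02, 9 dendritic cell markers, of which Bst2 is 1, had -0.04, 10 endothelial markers had -0.14 and 9 fibroblast markers had 0.14. The 10 adipocyte markers also had -0.14, while 23 of 25 lymphoid markers were higher in Y1cKO, with a median of 0.27 and summed levels of 1732 and 1763 RPKM in Y1cKO and 1578 and 1334 RPKM in Y1CTL. The 8 beige markers had a median of 0.35, with summed levels of 10095 and 8012 RPKM in Y1cKO and 10720 and 4150 RPKM in Y1CTL. By Ribo-seq the medians of the lymphoid, beige and fibroblast markers were above 0. Those of the adipocyte, endothelial, macrophage and dendritic cell markers were below 0, as was that of the members. Below 0 were 9 of 10 adipocyte, 8 of 10 endothelial, 7 of 12 macrophage, 5 of 9 dendritic cell, 2 of 9 fibroblast and 2 of 8 beige markers. This compares with 28 of the 32 members and 48.5% of all genes. The genes of smallest Ribo-seq p were Lpl and Cidec for adipocytes, Dio2 and Cox7a1 for beige adipocytes, Cd2 and Cd5 for T cells, Ltb and Cd79a for B cells, Lyve1 and Fcgr1 for macrophages, Zbtb46 and Cd209a for dendritic cells, Esam and Egfl7 for endothelium, Cd34 and Dpp4 for fibroblasts and Tnni2 and Eno3 for muscle, and none passed an adjusted p of 0.05 (limma). By RNA-seq the 25 lymphoid markers had a median of -2.09, which came from Y1CTL replicate 2, and 16 of them were at 0 in Y1CTL replicate 1. The part of any of these cells in the members' levels was not tested.

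**Figure D5:**
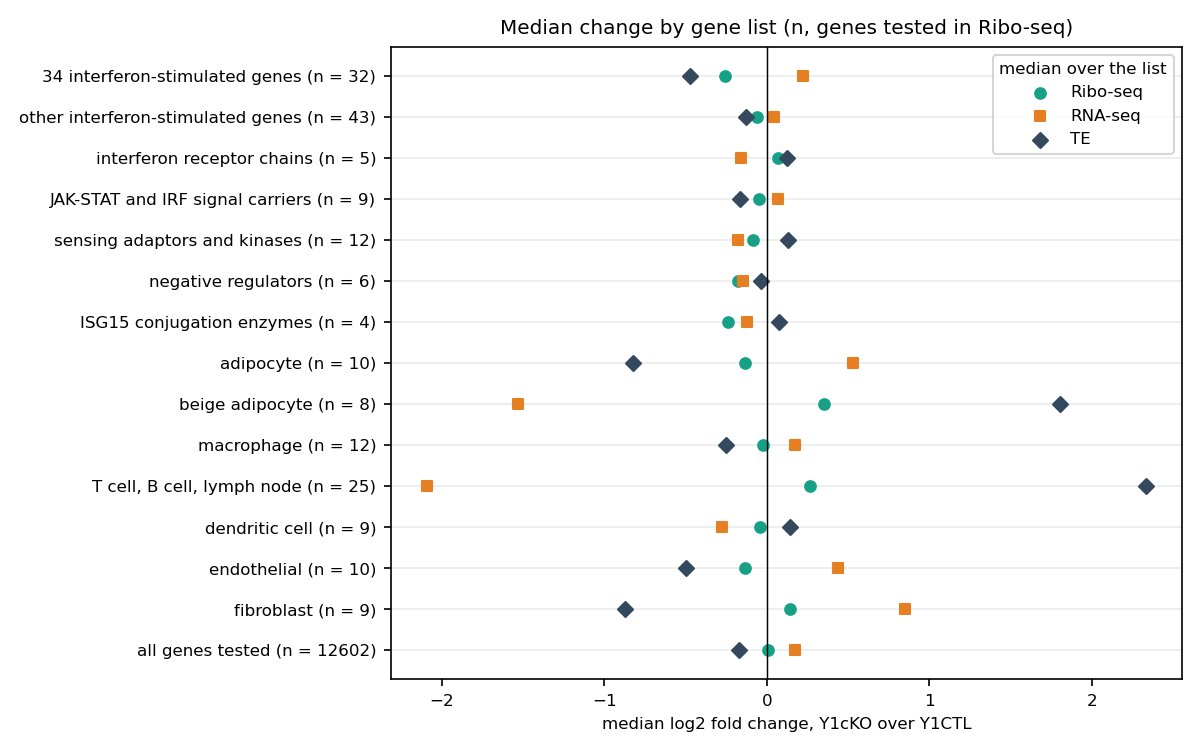
Points are the median log2 fold change of Y1cKO over Y1CTL of each list by Ribo-seq (circles), RNA-seq (squares) and TE (diamonds), with pathway lists above, cell lists below and all genes tested in the last row. The 34 interferon-stimulated genes have a Ribo-seq median of -0.26 and a TE median of -0.47, and the lymphoid and beige lists have Ribo-seq medians above 0 and RNA-seq medians below 0.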

How the data were processed

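RNA-seq and Ribo-seq of iWAT lysates were analysed from 8 tables of RPKM values, 1 per library, deposited by the authors after mapping with HISAT2 2.2.1 to mm8. How reads were counted, on which annotation and with which strandedness is not given in the sources used here. RPKM was set over transcripts for RNA-seq and over coding sequence for Ribo-seq. Each value was a whole number of reads to within 0.01 read, which gave back the reads. Genes missing from a Ribo-seq table were set to 0. The headers of the Y1cKO RNA-seq tables swap the replicate numbers of the labels, and the labels were followed. limma 3.58.1 (R 4.3.3), with a trend on the mean, was run on log2(RPKM + 0.5) for genes averaging 0.5 RPKM or more, within each assay and, for TE, on 8 libraries together. Adjustment was by Benjamini-Hochberg across all genes tested, and the procedure was checked on simulated data. The members, lists and alternatives were chosen with earlier results of these data known. Values per library were given for the 5 highest members of each assay, for the 3 highest and 3 lowest fold changes of each comparison, and for Ythdf1, and each further list has the 2 genes of smallest p named, except 1 gene that is not reported here. Other members given with values per library were chosen after their values were seen. Promoters came from RefSeq and were matched by gene symbol.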

Additional observations from a re-analysis of the deposited data

How the results depend on the processing

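The Ribo-seq median of the members and the count below 0 (26 to 30) kept their direction under every alternative run: pseudocounts of 0.1 and 1, no minimum or a mean of at least 2 RPKM, libraries scaled to the same median, voom on the reads, a replicate block and each replicate left out. With replicates left out in turn, the member medians ran from -0.25 to -0.13 for Ribo-seq, from 0.013 to 0.37 for RNA-seq and from -0.56 to -0.27 for TE, genes called from 0 to 51, from 0 to 665 and from 0 to 963, and members called from 0 to 1 for RNA-seq and TE. The TE median was -0.25 without Y1cKO RNA-seq replicate 1 alone, added after the data were seen. At a mean of at least 2 RPKM, 6 members were below 0 by RNA-seq in place of 10, as fewer were tested.

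Fold changes of single members changed sign where replicates were left out, for Ribo-seq from -0.16 to 0.11 for Ifi35, from -0.14 to 0.13 for Gbp2 and from -0.22 to 0.34 for Ifit3b, for RNA-seq from -0.20 to 0.16 for Stat2, from -0.048 to 0.65 for Irf1 and from -0.017 to 0.65 for Gbp2, and for TE from -0.50 to 0.70 for Zbp1 and from -0.10 to 0.50 for Usp18. Zbp1 had -0.26 in TE without Y1CTL RNA-seq replicate 2. Low transcripts also moved in size, with an RNA-seq fold change of -1.67 by voom for Mx1, of -1.37 by voom and -1.15 without Y1CTL replicate 1 for Oas3 and of -0.40 without Y1CTL replicate 1 for Ifi44, and a TE fold change of 1.03 without Y1CTL replicate 1 for Oas3. The cause was not tested.

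With the replicate number as a block, 0 genes were called for Ribo-seq, RNA-seq and TE, and with crossed numbers 0 for TE. Libraries of the 2 assays with the same number deviated from their group means with a correlation of -0.24 in Y1cKO and -0.14 in Y1CTL across genes, so that the numbers were not shown to pair the libraries. No call changed under the block.

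With 2 libraries a group, transcripts with under 50 reads, such as those of Cxcl10, Mx1, Mx2 and Oas3, are the least certain, and the Y1CTL RNA-seq libraries are the shallowest.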
